A study of Mus musculus with 8 samples.

Results

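The ADAM and ADAMTS metalloproteases of dermal fibroblasts are described here in skin of young and old mice. The list holds 10 genes: Adam9, Adam10, Adam12, Adam17, Adamts1, Adamts2, Adamts4, Adamts5, Adamts9 and Adamts15. They were chosen by family membership with the age differences of Adam12, Adamts9 and Adamts1 in these same arrays already known, so their differences between young and old are a description and support no further statement. Probe sets that the platform annotation assigns to exactly 1 of these symbols numbered 20 of the 45141 on the array, and they covered 9 of the 10 genes. Adamts2, the procollagen N-proteinase gene, had no such probe set and was not analysed here. Of the 9 measured genes, 8 had a brightest probe set whose mean lay above the median of all probe sets, 5.10 on the log2 scale, called the dim threshold below.

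Both groups were male C57Bl/6 mice, 4 young animals of 2 months and 4 old animals of 18 months, with 1 array per animal. Cells from skin without its subdermis were sorted as CD45-, CD117-, CD24-, CD31- and EpCam-negative and Pdgfra- and CD34-positive, so fibroblasts without CD34 are not represented. RNA of 5000 cells per mouse was amplified for 21 cycles. The values are log2 expression per probe set, and fewer cells of a type and less RNA per cell cannot be told apart in them. The array medians lay between 5.06 and 5.14. A gene is called where its adjusted p in the limma fit of old against young across all genes is under 0.05. The numbers in the sample titles form 2 runs, each holding 2 young and 2 old mice, here called run 1 (replicates 1 and 2 of each age) and run 2 (replicates 3 and 4). Whether the runs are the 2 collection days is not stated.

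ADAM proteins are membrane-anchored metalloproteases that cut the outer part of growth factors, cytokines, receptors and adhesion molecules off the cell surface, a process called ectodomain shedding. ADAMTS proteins are their secreted relatives with thrombospondin motifs, which act in the extracellular matrix on proteoglycans such as versican and aggrecan and on procollagens. Both are made with an inhibitory propeptide that proprotein convertases remove, and both are held in check by tissue inhibitors of metalloproteinases.

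The fibroblast genes Col1a1, Col3a1 and Dcn had mean levels of 13.11, 12.66 and 13.05, near the brightest probe set of each array (13.22 to 13.32). Cd34 lay at 10.91. The probe set of Pdgfra, a gene of the sorting gate, had a mean of only 4.76, below the dim threshold. Between the ages Cd34 differed by 0.20 ± 0.06 without overlap of the groups. Pdgfra differed by -0.59 ± 0.16 with overlap, a size that is uncertain at its level. Neither gate gene passed (limma adjusted p = 0.129 and 0.0808). Ptprc and Kit, which encode CD45 and CD117, had means of 3.47 and 3.80, below the median (3.91) of 23 control probe sets without a specific target. The other 3 genes sorted against lay above the dim threshold. Pecam1 (CD31) and Epcam had means of 5.97 and 5.25, and Cd24a had 8.07 in young and 5.33 in old mice. Pecam1 differed by 0.17 ± 0.12 and Epcam by 0.40 ± 0.10, the latter without overlap of the groups, and neither passed. Of the 5 genes sorted against, Cd24a alone was called between the ages, lower in old mice (-2.74 ± 0.27), and the summed level of the 5 ranged from 8.46 to 8.67 in young and from 7.22 to 7.70 in old mice. The sum of the 5 melanocyte markers, of which Mlana alone was called, ranged from 7.27 to 7.82 in young and from 8.88 to 9.98 in old mice. Mlana differed by 2.88 ± 0.34, and Tyr, Dct, Pmel and Tyrp1 by 0.12, 0.11, -0.09 and -0.06. None of the 5 keratinocyte markers was called, and their sum ranged from 8.18 to 9.10 in young and from 8.60 to 10.30 in old mice. All 5, which include Epcam, had a higher mean in old mice. Krt5 differed by 1.12 ± 0.42, and Krt14, Krt1 and Krt10 by 0.24, 0.63 and 0.35. Old replicate 3 read 9.13 for Krt10 and 6.38 for Krt1, above every other mouse. The part of these markers in the differences below was not tested. The sums of the 7 macrophage, 5 endothelial, 4 pericyte or smooth muscle and 2 Schwann cell markers overlapped between the ages, with no gene called, and the adipocyte, mast cell and T cell markers measured all had means below the dim threshold.

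RefSeq promoter windows (GRCm38.p6) were available for 5 of the 10 genes. Those of Adamts9 and Adamts1 are shown because these 2 matrix proteases were called in opposite directions with age. Each window holds the 250 bases before an annotated start, written 5′ to 3′ on the strand of the gene, at chr6:92943535-92943784 (minus strand) for Adamts9 and chr16:85803114-85803363 (minus strand) for Adamts1. Capitals mark matches, on both strands, to the TATA box (letters TATAAA), the GC box (letters GGGCGG), the AP-1 element (letters TGANTCA), the CCAAT box or the E-box (letters CACGTG).
Adamts9: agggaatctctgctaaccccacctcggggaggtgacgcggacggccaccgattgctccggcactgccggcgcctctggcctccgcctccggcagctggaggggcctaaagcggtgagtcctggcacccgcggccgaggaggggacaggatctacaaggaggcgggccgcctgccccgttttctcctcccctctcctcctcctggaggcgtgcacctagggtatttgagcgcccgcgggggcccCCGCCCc
Adamts1: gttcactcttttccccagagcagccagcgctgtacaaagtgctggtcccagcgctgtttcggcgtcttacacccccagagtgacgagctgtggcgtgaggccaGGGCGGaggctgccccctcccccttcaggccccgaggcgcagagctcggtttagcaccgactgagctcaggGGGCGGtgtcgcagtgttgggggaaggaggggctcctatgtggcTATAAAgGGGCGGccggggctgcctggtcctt

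The Adamts1 window held 1 TATA box, 32 to 27 bases before the start, and 3 GC boxes. The Adamts9 window held 1 GC box and no match to the other 4 motifs. Among all 32851 promoter windows of this length, 12.4% held the TATA box, 32.7% the GC box, 6.75% the AP-1 element, 33.8% the CCAAT box and 6.02% the E-box. A match says only that these letters are present. Adamts1 lies beside Adamts5 on chromosome 16, with no protein-coding gene between them in the RefSeq table.

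Adam12 was the member with the largest difference, followed by Adamts9, and both were lower in old fibroblasts. Adamts1 was higher by a smaller amount, and the remaining 6 measured genes did not pass the threshold. In the limma fit across 17097 genes, each represented by its brightest probe set, 3 of the 9 measured genes were called at an adjusted p under 0.05. Across all genes 3.97% were called, 1.82% higher and 2.15% lower in old mice. Groups did not overlap for 3 of the 9, beside 9.7% of all genes. The median difference of the 9 was 0.06, beside 0.01 over all genes. Since this contrast chose the list, nothing is read from these counts.

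**Figure D1:**
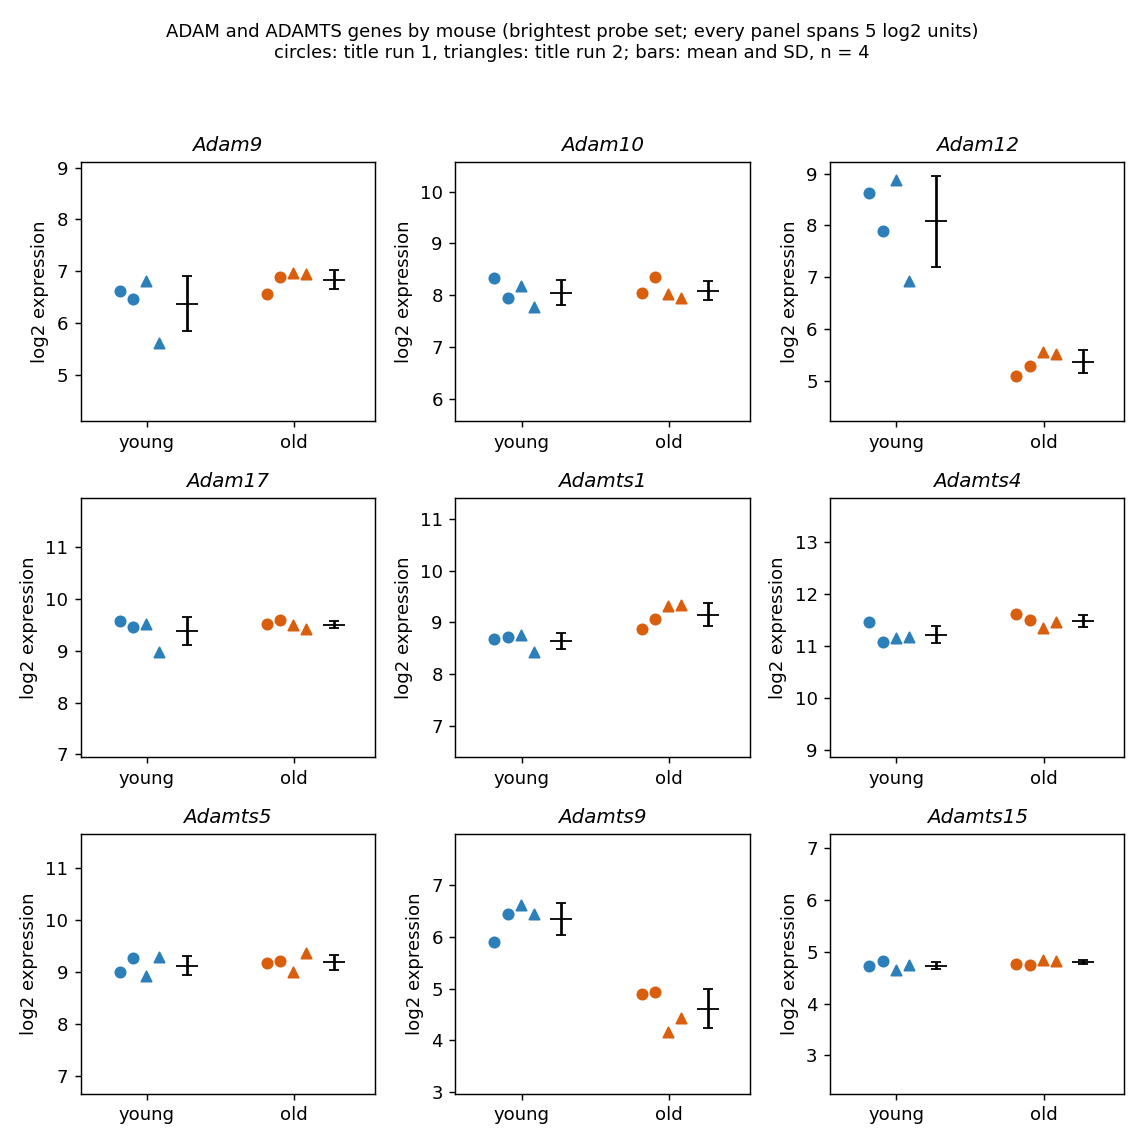
Log2 expression of the brightest probe set of each of the 9 measured genes in every mouse, young in blue and old in orange, with circles for run 1, triangles for run 2, and bars for mean and SD (n = 4 each). The young and old points of Adam12, Adamts9 and Adamts1 do not overlap, and those of the other 6 genes do.

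Adam12, or meltrin alpha, is a membrane protease known for its expression in mesenchymal progenitors and activated fibroblasts and for cutting insulin-like growth factor binding proteins and ligands of the epidermal growth factor receptor. Its brightest probe set read 8.63, 7.89, 8.87 and 6.92 in young replicates 1 to 4 and 5.10, 5.29, 5.57 and 5.53 in old replicates 1 to 4. Every old mouse lay below every young mouse, and the young mice were spread over almost 2 log2 units while the old mice lay close together and little above the dim threshold. The means were 8.08 ± 0.88 in young and 5.37 ± 0.22 in old mice (SD, n = 4). The level fell by 2.71 ± 0.36 (SE), a 6.52-fold difference between the means of log2 values, ranked 9 of 17097 by size (limma adjusted p = 0.00329). With the old values so near the dim threshold, this size, its fold and its rank are uncertain. The dimmer probe set of Adam12 read 7.71, 6.56, 7.42 and 6.27 in the young and 4.75, 4.92, 4.89 and 4.65 in the old mice. It gave a difference of -2.19 ± 0.29, and its size is uncertain because all old values lay below the dim threshold. On both probe sets young replicates 1 and 3 were the highest and young replicate 4 the lowest of the young mice.

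Its direction was the same in each subset of mice. Leaving out 1 mouse at a time, the difference of Adam12 stayed between -3.09 and -2.44 and its call was kept. It was -3.07 within run 1 and -2.35 within run 2. In the fit of all 8 arrays with a separate age difference for each run, that of run 2 did not pass (limma adjusted p = 0.0706).

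The widely expressed sheddase genes Adam10, Adam17 and Adam9 were not called between the ages. Adam10 cuts Notch receptors, cadherins and the amyloid precursor protein. Its brightest probe set read 8.33, 7.94, 8.17 and 7.77 in the young and 8.05, 8.35, 8.02 and 7.94 in the old mice, with a difference of 0.04 and a 95% interval from -0.26 to 0.34. The other 2 probe sets of Adam10 gave 0.10 and 0.14. The groups overlapped on all 3.

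Adam17, the tumour necrosis factor converting enzyme, also releases ligands of the epidermal growth factor receptor. Its brightest probe set read 9.58, 9.45, 9.52 and 8.97 in the young and 9.51, 9.59, 9.50 and 9.41 in the old mice, a difference of 0.12 (95% interval -0.16 to 0.41). The remaining probe sets gave -0.06 and -0.02, so the sign depended on the probe set. The intervals of Adam10 and Adam17 on these brightest probe sets did not reach a difference of 0.5 in either direction.

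Adam9 is a further sheddase with broad expression. Its only probe set read 6.62, 6.47, 6.81 and 5.61 in the young and 6.57, 6.89, 6.96 and 6.94 in the old mice. Young replicate 4 lay well below the other 7 mice, which overlapped. The difference of 0.46 ± 0.23 did not pass, and it was 0.21 without young replicate 4. That mouse was also the lowest of the 8 on the brightest probe sets of Adam10, Adam17 and Adamts1.

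**Figure D2:**
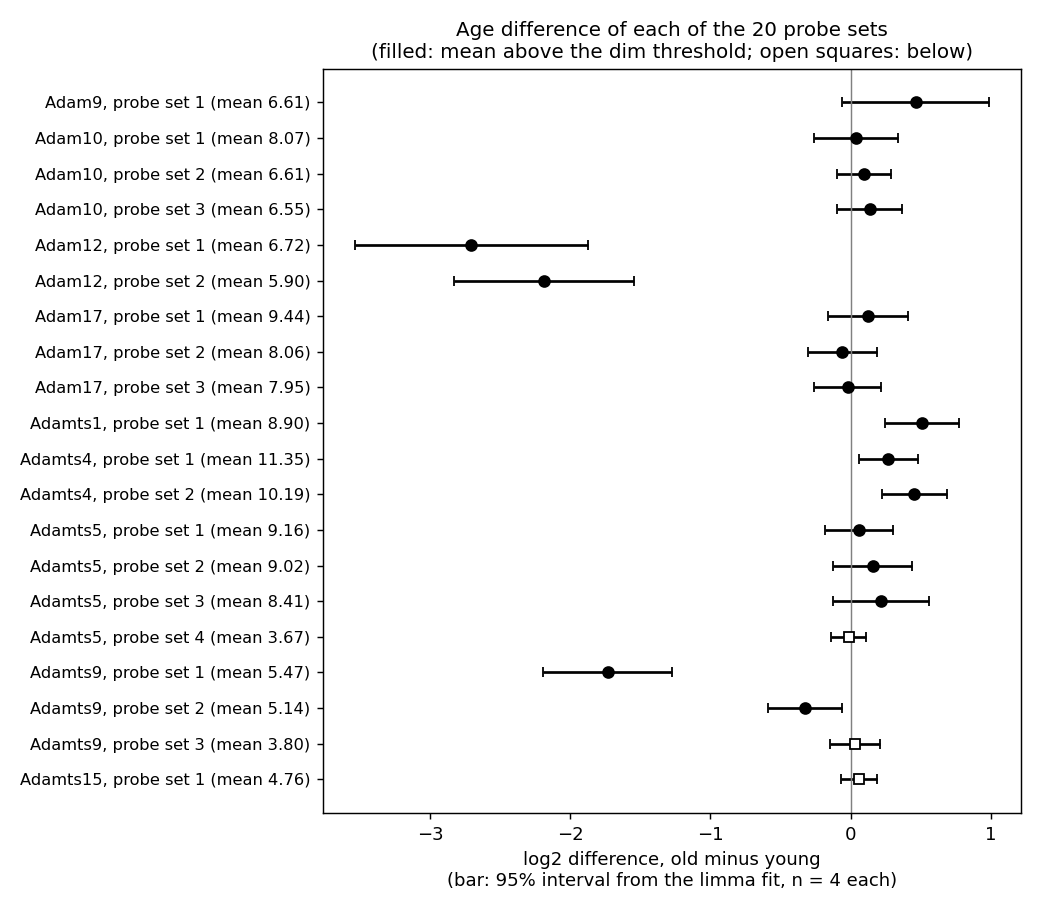
Log2 difference, old minus young, for each of the 20 probe sets with its 95% interval from the limma fit across all probe sets; filled circles are probe sets with a mean above the dim threshold and open squares those below. Both Adam12 probe sets lie beyond -2, the 3 of Adamts9 spread from -1.73 to 0.03, and both Adamts4 probe sets lie above 0.

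Adamts9 is a secreted protease that cuts versican and aggrecan and is known for roles in skin and limb development. Its brightest probe set read 5.89, 6.43, 6.61 and 6.43 in the young and 4.90, 4.94, 4.16 and 4.43 in the old mice. All old mice lay below all young mice and below the dim threshold. The means were 6.34 ± 0.31 and 4.61 ± 0.38 (SD, n = 4). The level fell by 1.73 ± 0.20 (SE, limma adjusted p = 0.00179). With all old values below the dim threshold, the size of this difference is uncertain, and no fold is given.

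The 3 probe sets of Adamts9 disagreed in size. The second, with a mean of 5.14 near the dim threshold, read 5.40, 5.16, 5.26 and 5.40 in the young and 5.20, 4.75, 5.16 and 4.81 in the old mice. Its difference was -0.33 ± 0.12, with overlapping groups and no call. The third had a mean of 3.80, below the median of the control probe sets, and differed by 0.03. On the brightest probe set the difference stayed between -1.88 and -1.58 when single mice were left out, with the call kept each time.

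Adamts1 is a secreted protease induced by inflammation and known for cutting versican and aggrecan. Its single probe set read 8.68, 8.71, 8.76 and 8.42 in the young and 8.88, 9.07, 9.31 and 9.34 in the old mice. The groups did not overlap, but the highest young and the lowest old mouse lay close together. The level rose by 0.51 ± 0.12 (SE), or 1.42-fold, at the edge of the threshold (limma adjusted p = 0.0462). The call was lost when any mouse other than old replicate 1 was left out, with differences between 0.43 and 0.55 and an adjusted p of up to 0.119 in these 7 fits. It was also absent in the fit across all probe sets (limma adjusted p = 0.0603).

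Adamts4 and Adamts5 are the main aggrecanases of cartilage. The brightest probe set of Adamts4 read 11.45, 11.08, 11.15 and 11.17 in the young and 11.62, 11.50, 11.35 and 11.45 in the old mice, and young replicate 1 lay within the old range. The difference was 0.27 ± 0.10. The second Adamts4 probe set read 10.20, 9.84, 10.06 and 9.74 against 10.48, 10.48, 10.36 and 10.33, with no overlap and a difference of 0.45 ± 0.10. Neither was called in the fit across all probe sets. Where each gene was represented by the weakest of its probe sets that still exceeded the dim threshold, Adamts4 was called higher (limma adjusted p = 0.0423).

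Adamts5 read 9.01, 9.27, 8.93 and 9.30 in the young and 9.17, 9.22, 9.0 and 9.36 in the old mice on its brightest probe set. The values overlapped almost entirely, and the difference was 0.06 (95% interval -0.18 to 0.30). The other 2 probe sets above the dim threshold gave 0.16 and 0.22. The last, with a mean of 3.67, gave -0.02 and says little at that level. Adamts15, a further versican-cutting protease, had 1 probe set with values from 4.65 to 4.83 in all mice, below the dim threshold, and a difference of 0.06 ± 0.06.

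Over all probe sets fitted one by one, 3 of the 20 were called, both of Adam12 and the brightest of Adamts9, all lower in old mice. Across the 45141 probe sets 2.57% were called. In the fit by gene, Adamts1 was the called gene nearest the threshold and Adamts4 the uncalled gene nearest to it (limma adjusted p = 0.197).

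The 2 runs of title numbers were not used to choose the genes, so the difference between runs and its dependence on age were tested. None of the 9 genes was called between the runs by limma, and 0 had an unadjusted p under 0.05. The largest shift, run 2 minus run 1 over both ages, was -0.19 ± 0.12 in Adam10 (adjusted p = 0.438). Across all genes 0.0468% were called for the run (8 of 17097, with 2835 at an unadjusted p under 0.05). Adam12 shifted by -0.01 ± 0.38 and Adamts9 by -0.13 ± 0.21.

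The age difference of Adamts9 was -1.24 in run 1 and -2.23 in run 2, and that of Adamts1 was 0.28 and 0.74. For Adamts9 the runs differed by -0.99 ± 0.25 (limma adjusted p = 0.537), and for Adamts1 by 0.46 ± 0.18 (limma adjusted p = 0.655), and neither passed. None of the 9 genes was called for this interaction by limma, and these 2 had an unadjusted p under 0.05. Across all genes 0% were called (0 of 17097, with 1253 at an unadjusted p under 0.05). For Adam12 the runs differed by 0.72 ± 0.75.

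**Figure D3:**
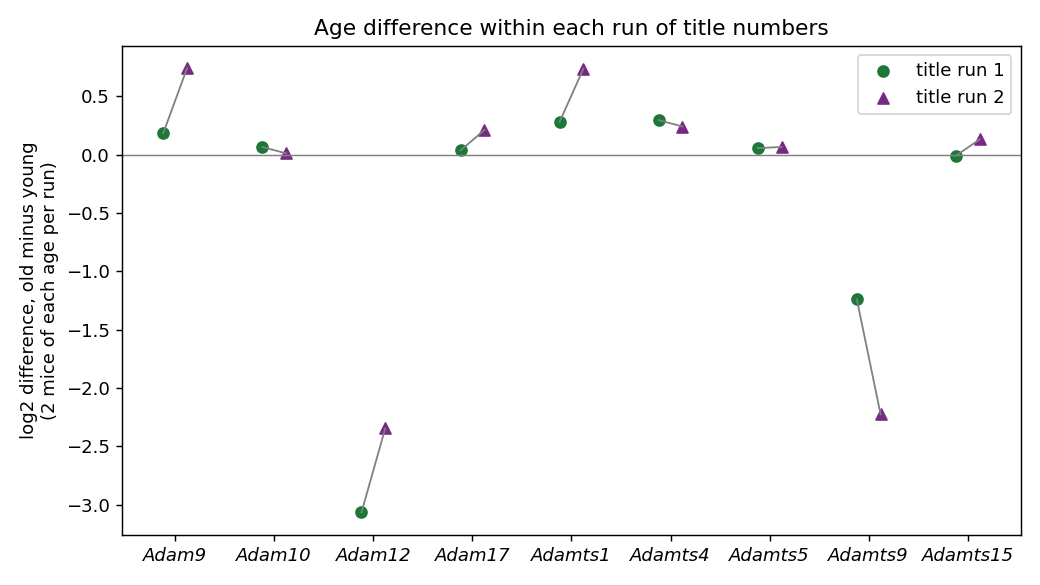
Log2 difference, old minus young, within run 1 (circles) and run 2 (triangles) for the 9 genes, each from 2 mice of each age. Adam12 and Adamts9 lie below 0 in both runs and Adamts1 above 0 in both, and Adamts9 moves from -1.24 to -2.23.

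The array measured 32 further ADAM and ADAMTS genes, 12 of them above the dim threshold. Of the 32, 1 rose, none fell and 31 did not pass, and their median difference was 0.02. This share, 3.13%, is close to the 3.97% called among all genes, but most of the 32 are dim. Among the 12 above the dim threshold the share was 8.33%, which rests on a single gene. Adam22 was the one that rose. It encodes a catalytically inactive ADAM that binds LGI proteins at synapses. Adam22 read 5.58, 5.78, 5.99 and 6.21 in the young and 6.58, 6.49, 6.50 and 6.59 in the old mice. The old mice were nearly equal and all above the young, a rise of 0.65 ± 0.12 (limma adjusted p = 0.0179). Its other probe set gave 0.30 with no call, and the call was lost without young replicate 2 (adjusted p = 0.0569) or old replicate 4 (0.0554).

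Adam23, another inactive LGI-binding member, differed by 0.57 ± 0.19 on its brightest probe set and did not pass. Adamts7, a protease of cartilage oligomeric matrix protein, differed by -0.31 ± 0.09 without overlap of the groups and did not pass. The sheddase genes Adam15, Adam19 and Adam33 differed by 0.05, 0.06 and 0.16. Adamts10 and Adamts12 gave -0.16 and 0.22. Many of the 20 dim genes, such as Adam2 and Adam3, are known from testis.

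**Figure D4:**
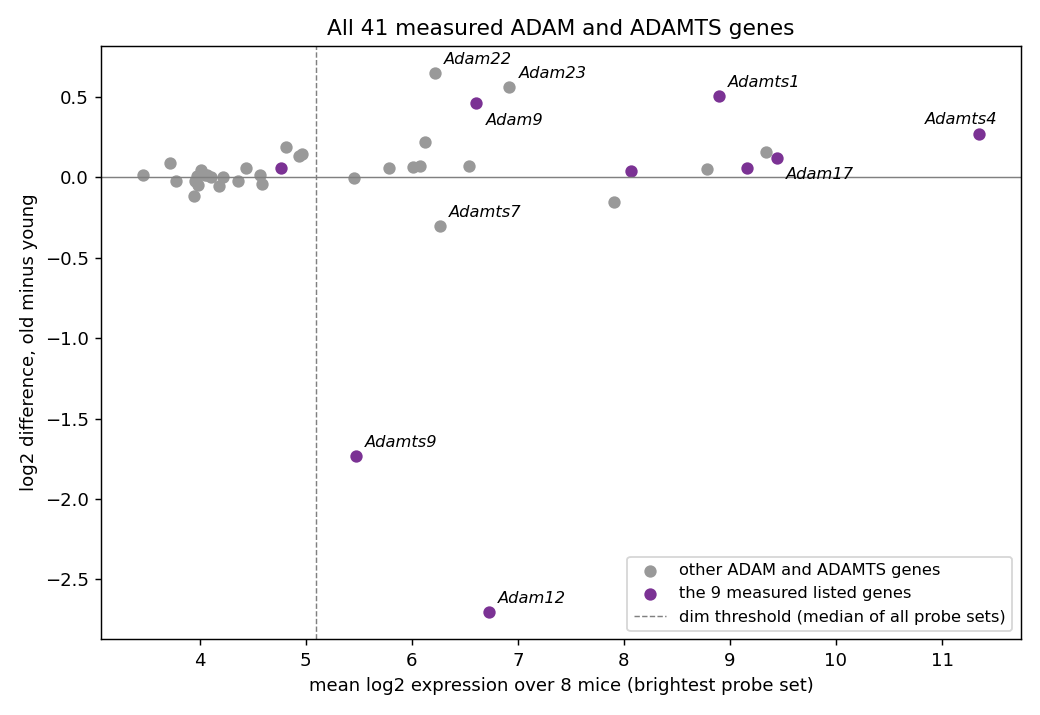
Log2 difference, old minus young, against mean log2 expression for the 41 measured ADAM and ADAMTS genes, the 9 listed genes in purple and the other 32 in grey, with the dim threshold as a dashed line. Adam12 and Adamts9 lie at -2.71 and -1.73, and the remaining genes lie between -0.31 and 0.65.

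ADAMTS-like proteins share the thrombospondin repeats but have no protease domain, and several bind fibrillin microfibrils. Of 7 genes measured in this group, which includes Papln and Thsd4, 2 rose and none fell (median 0.28), which is 28.6% beside 3.97% of all genes and rests on few genes. Adamtsl4 read 8.98, 8.84, 8.76 and 8.79 in the young and 9.07, 9.35, 9.60 and 9.43 in the old mice, a rise of 0.52 ± 0.11. Adamtsl3 rose by 0.44 ± 0.09. Leaving out 1 mouse ended the call of Adamtsl4 in 6 of 8 fits and of Adamtsl3 in 5 of 8, with limma adjusted p of up to 0.0904 and 0.0802. Among the uncalled genes of this group, Adamtsl1 had the largest difference, 0.37 ± 0.12.

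Among 6 measured inhibitors, 1 rose and none fell, which is 16.7% from a single gene, beside 3.97% of all genes. It was Timp3, the matrix-bound inhibitor known to act on Adam17 and on the aggrecanases. Timp3 read 9.27, 9.17, 9.38 and 9.75 in the young and 10.44, 10.56, 10.81 and 10.72 in the old mice. The ages lay far apart, with differences of 1.24 to 1.39 on its 4 probe sets. Reck, a membrane-bound inhibitor, differed by 0.45 ± 0.13, Timp2 by 0.20 ± 0.06 and Timp1 by -0.74 ± 0.26, and none of these passed. Groups did not overlap for 3 of the 6 inhibitors (Timp3, Reck and Timp2, all higher in old mice), beside 9.7% of all genes.

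Of 16 genes for partners and activators, 1 rose and none fell (median -0.03), a share of 6.25% near the 3.97% of all genes. Pcsk5, a proprotein convertase, read 6.00, 6.14, 5.78 and 5.81 in the young and 6.54, 6.66, 6.70 and 6.80 in the old mice. The groups were apart, and Pcsk5 rose by 0.74 ± 0.10, with 0.90 and 0.04 on its other probe sets. Furin, the best known convertase of ADAM propeptides, differed by -0.38 ± 0.10, and Rhbdf2, the iRhom that carries Adam17 to the cell surface, by -0.44 ± 0.12. Neither passed (limma adjusted p = 0.0846 and 0.092), although the groups did not overlap for either gene. Rhbdf1 (0.08) and the endocytic receptor gene Lrp1 (0.11), which clears Adamts4 and Adamts5, did not pass. The 6 tetraspanin genes listed as escorts of Adam10 did not pass either, with differences from -0.38 ± 0.19 in Tspan17 and -0.14 in Tspan15 to 0.11 in Tspan14.

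**Figure D5:**
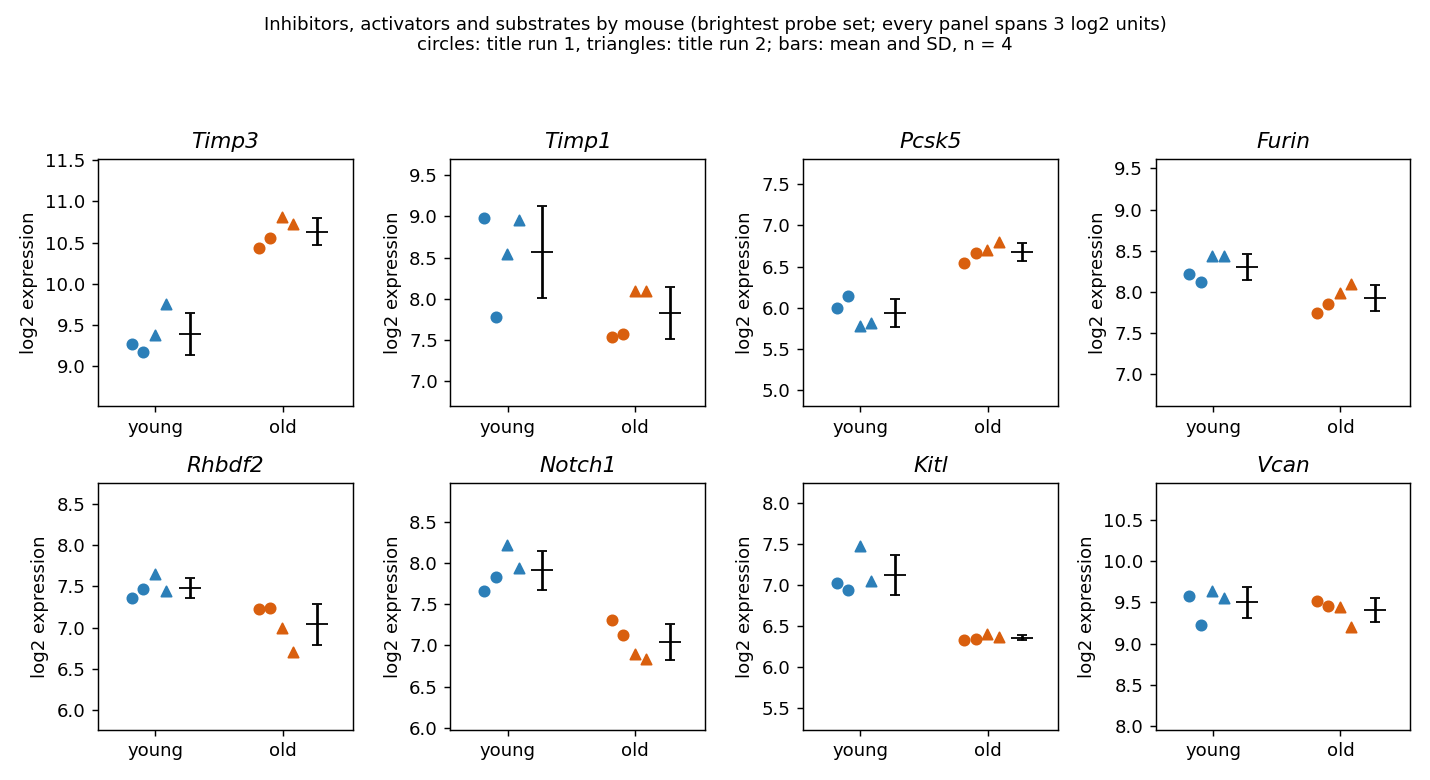
Log2 expression by mouse of 2 inhibitors, 2 convertases, the Adam17 carrier Rhbdf2 and 3 substrates, young in blue and old in orange, with bars for mean and SD (n = 4 each). Timp3 and Pcsk5 are higher and Notch1, Kitl, Furin and Rhbdf2 lower in every old mouse than in every young mouse. The points of Vcan and Timp1 overlap.

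Among 10 measured genes for proteoglycans, link proteins and collagens, 1 fell and none rose, which is 10% from a single gene, beside 3.97% of all genes. It was a link protein gene, and no proteoglycan or collagen gene was called on its brightest probe set. Vcan, the main hyalectan of skin, differed by -0.09 ± 0.11, and its 5 probe sets ranged from -0.23 to 0.17. The hyalectan genes Acan, Bcan and Ncan lay below the dim threshold. Hapln4, a link protein gene, fell by 0.69 ± 0.08. The procollagen genes Col1a1 and Col1a2 had 1 probe set each and differed by -0.05 ± 0.06 and -0.40 ± 0.16, and neither passed. The Col1a1 probe set (mean 13.11) lies near the top of the scale, where a small difference says little. The Col1a2 probe set had a mean of only 7.12. Col3a1 differed by -0.02 on the brightest probe set, which lies near the top of the scale. A dimmer probe set of Col3a1 (mean 10.14) read 10.34, 10.51, 10.58 and 10.68 in the young and 9.48, 9.62, 10.13 and 9.81 in the old mice. It fell by 0.77 ± 0.14 without overlap (limma adjusted p = 0.0211 over all probe sets).

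Of 26 measured substrates of ADAM sheddases, 1 rose and 2 fell (median 0.03), which is 11.5% beside 3.97% of all genes. Notch1, a receptor that Adam10 cuts, read 7.66, 7.83, 8.22 and 7.94 in the young and 7.31, 7.13, 6.89 and 6.83 in the old mice, without overlap, and fell by 0.87 ± 0.14. Its dim probe set gave -0.12. Kitl, the stem cell factor that is shed from the membrane, fell by 0.76 ± 0.11, and its 4 probe sets ranged from -0.76 to -0.29. Igfbp3, a known target of Adam12, rose by 2.11 ± 0.31, from 7.46 ± 0.64 to 9.57 ± 0.43 (SD, n = 4). Hbegf, a growth factor released by Adam12 and Adam17, differed by 0.59 ± 0.24 with overlapping groups. The receptor genes Tnfrsf1b and Il1r2 differed by 0.77 ± 0.22 and 0.31 ± 0.08 without overlap. None of these passed, and Il1r2 was the uncalled gene of this list nearest the threshold (limma adjusted p = 0.0536). Groups did not overlap for 8 of the 26, some higher and some lower in old mice, beside 9.7% of all genes.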

How the data were processed

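Expression was measured on 8 arrays. The deposited values are log2 expression per probe set, which the authors obtained using affy and RMA (no versions given), per the submitters' processing notes. RMA adjusts background, brings arrays to 1 distribution and summarises probes, so very low levels are compressed. The array version, any filters and the genome build were not given in the sources used here. Precision is limited by the number of arrays. The platform annotation gave 28898 probe sets 1 symbol, 551 several and 15692 none. For each of 17097 genes the probe set with the highest mean was used. Old and young mice were compared with limma 3.58.1 in R 4.3.3 (lmFit, eBayes, 2-sided, Benjamini-Hochberg over all genes, threshold 0.05), and again over all 45141 probe sets. Each mean ± SD has n = 4, and differences are old minus young with their SE. Marker sums are log2 of summed linear values. Models with the run of title numbers, with and without interaction, were also fitted. Calls within a run come from the interaction model on all 8 arrays, so their variance draws on both runs. Scripts were tested on simulated data.

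Members and lists were chosen with earlier results of these data known. Named were all members, every list gene past the threshold, and a set of always-named genes (Timp3, Vcan, Lrp1, collagens and the sorting gate), with others chosen after their values were seen. Alternatives changed the prior, array weights, dim filter, probe set choice, scaling, run block, threshold (0.1) and set of mice.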

Additional observations from a re-analysis of the deposited data

Results flagged for a closer look

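Of 66 groups of 4 mice examined for the genes named, 2 held a mouse far from the other 3, and chance flags about 1 in 20 such groups. The dimmest probe set of Adamts5 read 3.71 in young replicate 1 while the other 3 young mice were equal, a gap of 0.04 at a level below the median of the non-specific controls (3.91). The brightest probe set of Col3a1 read 12.54 in young replicate 4, below the other young mice (12.71 to 12.73).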

How the results depend on the processing

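No paired analysis was possible because the labels give no replicate number shared by young and old mice. The run of title numbers as a block changed no call of a listed gene. Adam12 and Adamts9 had a lower mean in old mice in every setting, without a call for Adam12 within run 2 and for Adamts9 on its weaker probe set. With the dimmest probe set above the dim threshold, 1 listed gene was lower and 2 were higher (Adamts9 -0.33, limma adjusted p = 0.178; Adam17 -0.0225; Adamts4 0.45) and 0 of the 32 others were higher. With arrays centred on their median 0 listed genes were higher (Adamts1 0.50, limma adjusted p = 0.0772). Leaving out 1 mouse gave 0 to 1 listed genes higher and 0 to 2 of the 32 others higher, with 427 to 606 of all genes called. Within run 1, 0 listed genes were higher and 336 genes were called in all. Within run 2, 1 listed gene was lower, 0 of the 32 others were higher and 421 genes were called. At the threshold of 0.1, 1082 genes were called. Among probe sets, the listed ones called higher numbered 1 with a prior by mean level, 2 with array weights, 1 with the run block and 0 to 1 without single mice. Signs turned for small uncalled differences. Without single mice, Adam10 ranged from -0.057 to 0.13, Adam17 from -0.014 to 0.19 and Adamts5 from -0.0058 to 0.12, and within run 1 Adamts15 was at -0.01. Signal limits Adamts15, below the dim threshold in all mice, and the old levels of Adamts9 and of the dimmer Adam12 probe set. The values of Adam9, Adamts9 and Adamts15 and the old values of Adam12 lie within the range of the non-specific controls (2.98 to 7.20).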
